A study of Mus musculus with 6 samples.

Results

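Messenger RNA of 40 genes for DNA replication and S phase was compared between CD34-KSL cells of Elovl6 knock out mice (KO, 4 libraries) and of wild-type mice (WT, 2 libraries). CD34-KSL cells are bone marrow cells that carry Kit and Sca-1 but neither lineage markers nor surface CD34, a fraction enriched for long-term hematopoietic stem cells. Elovl6 encodes an enzyme that lengthens long-chain fatty acids. The 40 genes were chosen by name for their roles in origin licensing, the replication fork, nucleotide supply, chromatin assembly and entry into S phase, out of 51826 genes in the table, and all 40 were among the 11969 genes with enough counts to be tested. The sources used here do not give age, sex, strain, the number of mice behind each library or the part of Elovl6 that was removed. Since separate animals are not stated, the p-values reflect only how these 6 libraries vary, which may in part be technical.

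Replication starts at origins that were licensed in G1, when the origin recognition complex, CDC6 and CDT1 load a ring of the MCM2 to MCM7 proteins onto DNA. CDC45 and the GINS complex then turn the ring into an active helicase, and DNA polymerases copy both strands with the help of the sliding clamp PCNA and its loader, replication factor C. Many of these genes are transcribed together as cells leave G1, under E2F transcription factors, and long-term stem cells are known for being mostly quiescent.

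Counts assigned to genes ran from 2121240 to 5137628 in KO libraries and were 3569449 and 3812524 in WT libraries. Kit, the receptor that defines the sorted fraction, was at 966 to 1444 CPM, the count scaled to a common library size and composition, in KO libraries and at 1224 and 1303 CPM in WT libraries, and Ly6a, which encodes Sca-1, was at 33.3 to 51.3 CPM in KO and 64.7 and 75.02 CPM in WT. Cd34 mRNA was also read, at 305 to 417 CPM in KO and 342 and 310 CPM in WT, in cells sorted as negative for the surface protein. Elovl6 was at 8.81 to 21.4 CPM in KO and 30.6 and 38.3 CPM in WT. Markers of other blood lineages were uneven between KO libraries. B-lineage markers, all 10 detected, summed to 1074 CPM in KO replicate 1, to 178 to 344 CPM in the other KO libraries and to 148 and 213 CPM in WT. In KO replicate 4, 10 neutrophil and granulocyte markers summed to 9608 CPM and 10 erythroid markers to 3273 CPM. In the other KO libraries these sums ran from 225 to 1584 CPM and from 260 to 523 CPM, and in WT libraries they were 1284 and 1094 CPM for neutrophil markers and 141 and 531 CPM for erythroid markers. Markers of stem cells summed to 2731, 3990, 3959 and 3132 CPM in KO replicates 1 to 4 and 3963 and 3663 CPM in WT, and those of multipotent and lymphoid-primed cells to 3829, 2082, 2058 and 1654 CPM in KO and 1476 and 1533 CPM in WT. Of the 12 tested stem cell markers 10 had a log2 fold change below 0 (median -0.16), against 5862 of all 11969 tested genes. With KO replicate 1 left out 5 of the 12 were above 0 (median -0.062). With WT replicate 1 or WT replicate 2 left out 4 or 0 were above 0 (medians -0.12 and -0.23). Sums did not overlap between genotypes for multipotent and lymphoid-primed markers, higher in every KO library, and for 3 more lists. Megakaryocyte and platelet markers were at 38.9 to 97.4 CPM in KO and 144 and 137 CPM in WT. Stroma and endothelium markers were at 100.8 to 164 CPM in KO and 169 and 173 CPM in WT. Most of that sum was a single gene, Pecam1, at 69.5 to 124 CPM in KO and 124 and 141 CPM in WT. T and NK markers were at 65.5 to 102 CPM in KO and 42.1 and 46.9 CPM in WT. In these 3 lists, 5 of 6, 2 of 4 and 0 of 4 tested genes had a log2 fold change below 0. Single genes did not overlap, in either direction, in 20.3% of all tested genes. Monocyte and macrophage markers summed to 33.2 to 170 CPM in KO and 31.7 and 48.5 CPM in WT, and mast cell, basophil and eosinophil markers to 2.44 to 534 CPM in KO and 281 and 69.3 CPM in WT. None of the markers in these lists was at 0 in all libraries, and their part in the results on replication genes was not tested.

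The replication genes varied as much between libraries of one genotype as between genotypes, and KO and WT overlapped in 38 of the 40. Their mean centred log2 CPM was 0.07 ± 0.35 in KO (SD, n = 4) and -0.15 ± 0.46 in WT (SD, n = 2), so the difference of 0.22 was smaller than either SD. KO replicate 1 had the highest level of 30 of the 40 genes and WT replicate 1 the lowest level of 22, where 18.1% of all tested genes were highest in the KO library and 17.997% lowest in the WT library. WT replicate 2 stood above both KO replicate 2 and KO replicate 3 in 34 of the 40 genes. By the edgeR quasi-likelihood test, 0 of the 40 genes passed an adjusted p of 0.05, a threshold that 0.159% of all tested genes passed, and adjusted p-values ran from 0.493 to 0.978. The DESeq2 Wald test also called 0 members, as did limma-voom, run with weights that lower the part of atypical libraries. At an unadjusted p under 0.05 edgeR had 1 member, Orc1, which is 2.5% of the members against 9.9% of all tested genes (5.67% counting only those higher in KO), DESeq2 had 2 and limma-voom 0.

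**Figure D1:**
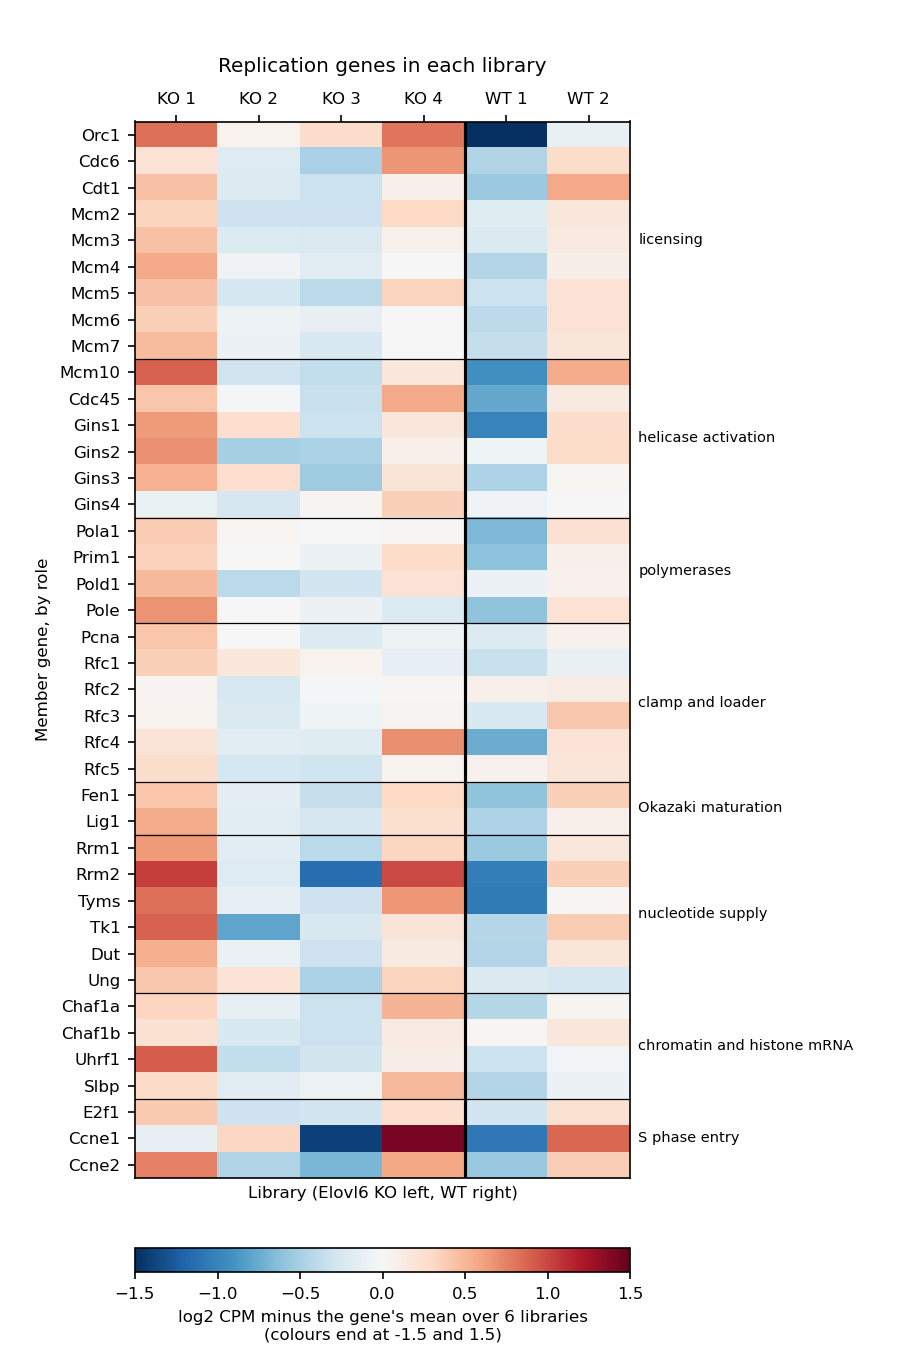
Level of each of the 40 replication genes (rows, grouped by role) in each library (columns, KO left and WT right), as log2 CPM minus the mean of that gene over the 6 libraries, with colours that end at -1.5 and 1.5. KO replicate 1 is highest in 30 genes and WT replicate 1 lowest in 22, and WT replicate 2 is above KO replicates 2 and 3 in 34.

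The log2 fold change of KO over WT was above 0 for 34 of the 40 genes, or 85.0% of them against 51.0% of all tested genes, with a median of 0.19 against 0.0085 for all tested genes. The share moved with single libraries. With KO replicate 1 left out, 20 of 40 were above 0 and the median was 0.016. With WT replicate 1 left out, 14 were above 0 and the median was -0.077. Without WT replicate 2, 37 were above 0 and the median was 0.56. The median absolute log2 fold change was 0.19 and the median SE 0.26. Gene by gene, some members had a difference within their own SE and others beyond it. All of those beyond it had a log2 fold change above 0. KO and WT libraries did not overlap in 2 of the 40 genes (5.0%, against 20.3% of all tested genes), Orc1 with every KO library higher, and Rfc2 with every KO library lower, as in 10.3% of all tested genes. In bulk RNA, a different number of cycling cells and a different amount of replication mRNA per cell cannot be told apart.

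**Figure D2:**
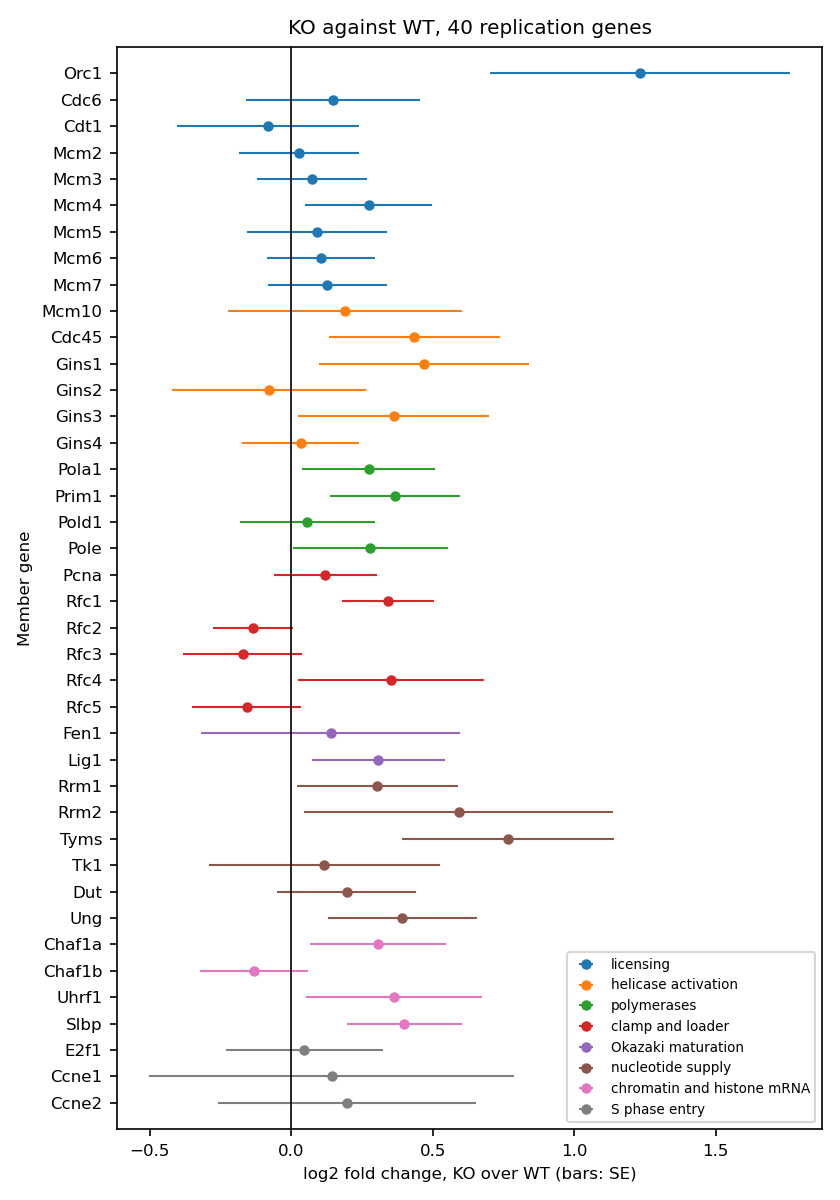
Log2 fold change of KO over WT for each of the 40 replication genes (points, coloured by role), with its SE as the bar, from the edgeR fit over 6 libraries. Orc1 lies farthest from 0 at 1.23, and 34 of the 40 points lie above 0.

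**Figure D3:**
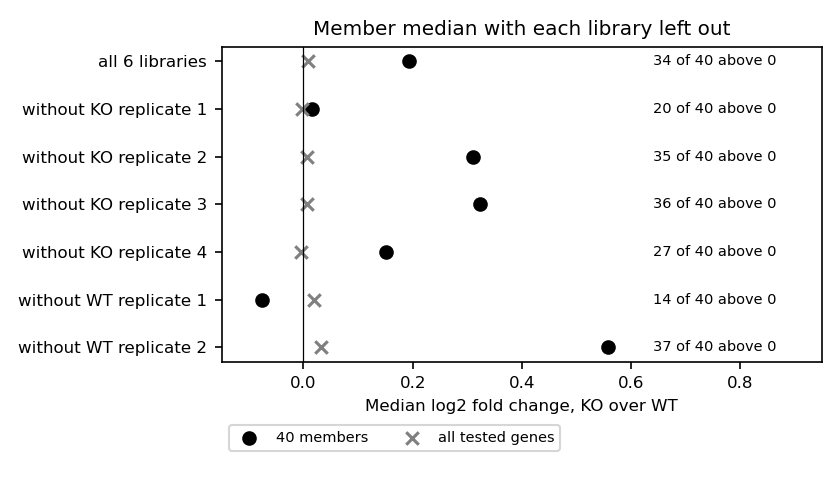
Median log2 fold change of the 40 replication genes (dots) and of all tested genes (crosses) with all 6 libraries and with each library left out in turn. The member median is -0.077 with WT replicate 1 left out, 0.016 with KO replicate 1 left out and 0.56 with WT replicate 2 left out.

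Compared library by library, the members had a median ratio of 1.92 between KO replicate 1 and WT replicate 1, with 38 of 40 genes higher in the KO library. Between KO replicate 3 and WT replicate 2 the median ratio was 0.738, with 4 of 40 genes higher in the KO library. Within WT, replicate 1 over replicate 2 gave a median ratio of 0.671, with 1 gene, Ung, higher in replicate 1. Within KO, replicate 1 over replicate 3 gave 1.67 (39 of 40 genes higher in replicate 1) and replicate 4 over replicate 2 gave 1.36 (34 of 40). The difference between the pair of WT libraries was thus of the size of the differences among KO libraries. Over all tested genes the median ratios within a genotype lay between 0.997 and 1.00, since the scaling of CPM sets them near 1. From lowest to highest library, the members had a median ratio of 2.02. Tested genes with a mean CPM at least that of the lowest member had a median ratio of 1.61. The 40 genes took 0.666%, 0.453%, 0.429% and 0.540% of the counts in KO replicates 1 to 4, and 0.396% and 0.554% in WT replicates 1 and 2.

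The promoters of these genes were searched for E2F motifs, since such motifs are what the family is known to share. In the RefSeq promoter set used here (GRCm38.p6), 33 of 40 genes had a window from 250 bases before to 50 after the gene start. Mcm4, Gins1, Gins2, Gins4, Pole, Rfc2 and Ccne2 were missing from that set, so their promoters were not searched. A match to TTTCCCGC, TTTGGCGC, TTTCGCGC or TTTGCCGC on either strand was found in 13 of the 33 (39.4%), where 2.61% of 27025 genes hold one in a window of this length. CCAAT, the NF-Y box, was found in 19 of the 33 (57.6%, against 41.1% of all genes), and TTTGAA, the core of the cell cycle homology region found in G2/M promoters, in 4 (12.1%, against 20.2%). The next lines give the 150 bases before the start, 5′ to 3′ on the gene's strand, of Orc1 and Tyms, the members with the largest log2 fold changes, of Mcm6, which had the most E2F matches, and of Pola1, in which 1 KO library stood apart, with E2F matches in capitals.
Orc1 (chr4:108579304-108579453, plus strand): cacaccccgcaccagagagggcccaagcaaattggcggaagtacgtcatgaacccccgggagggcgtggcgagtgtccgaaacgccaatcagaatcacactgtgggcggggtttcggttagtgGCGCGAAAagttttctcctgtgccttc
Tyms (chr5:30073626-30073775, minus strand): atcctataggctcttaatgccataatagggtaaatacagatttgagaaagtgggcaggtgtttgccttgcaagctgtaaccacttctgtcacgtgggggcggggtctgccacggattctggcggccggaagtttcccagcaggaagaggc
Mcm6 (chr1:128359706-128359855, minus strand): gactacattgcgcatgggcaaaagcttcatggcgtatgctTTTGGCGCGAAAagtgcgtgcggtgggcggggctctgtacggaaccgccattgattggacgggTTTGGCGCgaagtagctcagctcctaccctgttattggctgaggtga
Pola1 (chrX:93632156-93632305, minus strand): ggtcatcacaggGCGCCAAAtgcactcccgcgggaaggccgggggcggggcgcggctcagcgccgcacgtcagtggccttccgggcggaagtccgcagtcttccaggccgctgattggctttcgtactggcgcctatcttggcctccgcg
Mcm6 held 3 matches, of which 2 overlap on opposite strands at positions -110 to -99 from the start, while the Orc1 match lay at -27 to -20 and that of Pola1 at -138 to -131. Mcm3, Mcm7, Lig1, Pold1, Cdt1 and Uhrf1 had matches elsewhere in their windows, outside the 150 bases before the start. Starts here are those of RefSeq and can differ from the gene positions given below. The Orc1 window ends at 108579453, past the gene position that starts at 108579423, so the Orc1 match lies inside that span. A match is a run of letters, and binding was not measured.

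Positions of genes are on mm10 and span the whole gene. Of the 9 licensing genes, 8 had a log2 fold change above 0, with a median of 0.11. These counts and medians by role moved with single libraries, and with KO replicate 1 or WT replicate 1 left out 3 or 2 of the 9 were above 0 (medians -0.052 and -0.14). Orc1 (ENSMUSG00000028587, chr4:108579423-108614833), the subunit of the origin recognition complex whose level follows the cell cycle, had the largest value of all members. It was at 13.9, 8.14, 9.42 and 13.7 CPM in KO replicates 1 to 4 and at 2.20 and 7.29 CPM in WT replicates 1 and 2, from counts of 69, 39, 27 and 28 against 8 and 28. Every KO library was above both WT libraries, but KO replicate 2 lay close to WT replicate 2. The log2 fold change was 1.23 (SE 0.53, unadjusted p = 0.041, adjusted p = 0.493, edgeR quasi-likelihood test), and it was 2.33 without WT replicate 2 and 0.62 without WT replicate 1. Orc1 was also the lowest member per length, at 1.15 ± 0.49 RPKM in KO (SD, n = 4) and 0.607 ± 0.50 RPKM in WT (SD, n = 2), where RPKM is the deposited read number scaled for exon length and mapped reads. CDC6 and CDT1, which work with ORC to load the MCM ring, had genes at 0.15 (SE 0.31) and -0.08 (SE 0.32) on the log2 fold change scale.

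The 6 subunits of the MCM ring, the helicase core, had differences within their errors except for Mcm4. Their log2 fold changes were 0.03 for Mcm2, 0.07 for Mcm3, 0.27 for Mcm4, 0.09 for Mcm5, 0.11 for Mcm6 and 0.13 for Mcm7, with SEs from 0.19 to 0.25. Mcm3 (ENSMUSG00000041859, chr1:20802968-20820312) was at 778, 494, 490 and 596 CPM in KO replicates 1 to 4 and at 493 and 628 CPM in WT replicates 1 and 2, so WT replicate 2 was above all KO libraries but replicate 1. Per length, Mcm3 had the highest level of all members, at 42.9 ± 18.2 RPKM in KO (SD, n = 4) and 45.1 ± 3.64 RPKM in WT (SD, n = 2), and Mcm3 and then Mcm6 led the MCM ring in each of the 6 libraries. The highest MCM subunit was 2.77 to 3.14 times the lowest in RPKM in KO libraries, and 3.48 and 3.08 times in WT libraries. Mcm4 or Mcm5 was the lowest subunit in every library.

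Of the 6 genes that turn the ring into a helicase, 5 were above 0, with a median of 0.28 (4 or 3 with KO replicate 1 or WT replicate 1 left out, medians 0.13 and -0.0080). Cdc45 (ENSMUSG00000000028, chr16:18780447-18811987), the core helicase cofactor, was at 56.7, 41.7, 33.9 and 63.1 CPM in KO replicates 1 to 4 and at 25.1 and 46.9 CPM in WT replicates 1 and 2 (log2 fold change 0.43, SE 0.30, adjusted p = 0.669, edgeR). WT replicate 1 was below every other library and WT replicate 2 lay inside the KO range. Gins4 (ENSMUSG00000031546, chr8:23226616-23237659), a GINS subunit, was at 37.3, 33.6, 41.2 and 51.4 CPM in KO and 38.8 and 40.4 CPM in WT, with a log2 fold change of 0.03 (SE 0.21) and WT inside the KO range. The other GINS genes were at 0.47 (Gins1), -0.08 (Gins2) and 0.36 (Gins3), and Mcm10, which helps the helicase start, at 0.19 (SE 0.41). Mcm10 ran from 52.0 to 124 CPM over KO libraries and was at 35.5 and 98.7 CPM in WT.

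With all 6 libraries the 4 polymerase genes were above 0, with a median of 0.28. With KO replicate 1 left out 3 of 4 were above 0 (median 0.097), and with WT replicate 1 left out 1 was (median -0.044). Prim1 (ENSMUSG00000025395, chr10:128015168-128030037), the primase that lays the RNA primers, was at 58.1, 45.9, 43.3 and 55.3 CPM in KO and 30.0 and 48.5 CPM in WT (log2 fold change 0.37, SE 0.23, adjusted p = 0.623, edgeR). Pold1 (ENSMUSG00000038644, chr7:44532746-44548849), the catalytic subunit of the polymerase known for the lagging strand, was at 150, 81.2, 87.6 and 125 CPM in KO and 101 and 112 CPM in WT, a log2 fold change of 0.06 (SE 0.24). Both WT values of Pold1 lay between KO replicates 3 and 4. Pola1, which extends the primer, was at 0.27 (SE 0.24), and Pole, the polymerase known for the leading strand, at 0.28 (SE 0.27).

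The clamp and its loader were divided, 3 genes above and 3 below 0 (2 or 1 above 0 with KO replicate 1 or WT replicate 1 left out). Pcna (ENSMUSG00000027342, chr2:132249162-132253314), the sliding clamp, was at 244, 183, 160 and 174 CPM in KO and 159 and 192 CPM in WT, a log2 fold change of 0.12 (SE 0.18). KO replicates 2 to 4 lay between the WT values and KO replicate 1 above both. Rfc1 (ENSMUSG00000029191, chr5:65261850-65335670), the large loader subunit, was at 183, 159, 148 and 132 CPM in KO and 113 and 133 CPM in WT, a log2 fold change of 0.34 (SE 0.16, unadjusted p = 0.061, adjusted p = 0.532, edgeR), and KO replicate 4 lay just under WT replicate 2. Of the small loader subunits, Rfc4 was at 0.35 (SE 0.33) and Rfc2, Rfc3 and Rfc5 were at -0.13 (SE 0.14), -0.17 (SE 0.21) and -0.16 (SE 0.19) in log2 fold change. Rfc2 varied least of all members, 1.27-fold between its highest and lowest library, and was at 142, 116, 136 and 139 CPM in KO and 144 and 148 CPM in WT.

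Lig1 (ENSMUSG00000056394, chr7:13277283-13311433), the ligase that joins Okazaki fragments, was at 490, 297, 279 and 393 CPM in KO and 241 and 349 CPM in WT, a log2 fold change of 0.31 (SE 0.24, adjusted p = 0.702, edgeR). WT replicate 1 was below all KO libraries and WT replicate 2 inside their range. The median of Lig1 and Fen1 was 0.22, and 0.052 or -0.098 with KO replicate 1 or WT replicate 1 left out. Fen1, the flap nuclease of the same step, was at 0.14 (SE 0.46) on 174 counts in all, and 8.61% of its exon reads were placed uniquely. With multi-mapping exon reads included, Fen1 had 629, 365, 183 and 200 reads in KO replicates 1 to 4 and 248 and 396 in WT replicates 1 and 2, and a log2 fold change of 0.09 (SE 0.28).

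With all 6 libraries the 6 genes of nucleotide supply were above 0, with a median of 0.35. With KO replicate 1 left out 4 were above 0 (median 0.18), and with WT replicate 1 left out 3 were (median 0.024). Tyms (ENSMUSG00000025747, chr5:30058202-30073617), thymidylate synthase, was at 73.8, 38.2, 33.5 and 65.1 CPM in KO and 19.8 and 41.9 CPM in WT, a log2 fold change of 0.77 (SE 0.37, unadjusted p = 0.066, adjusted p = 0.544, edgeR). Its WT replicate 2 was above KO replicates 2 and 3. Rrm1 (ENSMUSG00000030978, chr7:102441695-102469771), the large subunit of ribonucleotide reductase, was at 408, 233, 197 and 325 CPM in KO and 178 and 293 CPM in WT, a log2 fold change of 0.30 (SE 0.28). Rrm2, the subunit that limits the enzyme in S phase, was among the most variable members, 4.53-fold between libraries, from 23.0 to 104 CPM in KO and at 24.8 and 65.4 CPM in WT. Tk1, which salvages thymidine, was at 0.12 (SE 0.41), Dut, which breaks down dUTP, at 0.20 (SE 0.25), and Ung, which removes uracil from DNA, at 0.39 (SE 0.26).

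Of the 4 chromatin genes 3 were above 0, with a median of 0.34 (0.11 or 0.16 with KO replicate 1 or WT replicate 1 left out). Uhrf1 (ENSMUSG00000001228, chr17:56303321-56323486), which guides maintenance DNA methylation, was at 447, 184, 197 and 254 CPM in KO and 189 and 232 CPM in WT, a log2 fold change of 0.36 (SE 0.31, adjusted p = 0.729, edgeR). KO replicates 1 and 4 stood above both WT libraries, KO replicate 2 lay below both, and KO replicate 3 lay between them. Slbp (ENSMUSG00000004642, chr5:33634952-33652574), which binds the stem-loop of histone mRNA, was at 166, 121, 129 and 190 CPM in KO and 100.5 and 128 CPM in WT, a log2 fold change of 0.40 (SE 0.20, unadjusted p = 0.0765, adjusted p = 0.563, edgeR). The histone chaperone genes Chaf1a and Chaf1b were at 0.31 (SE 0.24) and -0.13 (SE 0.19).

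The 3 genes of S phase entry had log2 fold changes of 0.05 (E2f1, SE 0.28), 0.14 (Ccne1, SE 0.65) and 0.20 (Ccne2, SE 0.45), of which 1 or 0 were above 0 with KO replicate 1 or WT replicate 1 left out. E2f1 (ENSMUSG00000027490, chr2:154559407-154569892), the transcription factor of the program, was at 35.3, 21.7, 22.0 and 31.8 CPM in KO and 22.0 and 31.5 CPM in WT, and Ccne2 (ENSMUSG00000028212, chr4:11191351-11204779), a cyclin E gene, at 25.4, 11.1, 9.42 and 22.5 CPM in KO and 10.2 and 19.5 CPM in WT. In both genes KO replicates 1 and 4 and WT replicate 2 were high and the other 3 libraries low. Ccne1, the other cyclin E gene, picked out after its values were seen, varied most of all members, 7.08-fold between libraries. It was at 16.9, 23.0, 6.98 and 49.4 CPM in KO and 8.81 and 33.6 CPM in WT, so KO replicate 1, the highest library for most members, was here below WT replicate 2 and KO replicates 2 and 4.

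Every cell cycle list had KO replicate 1 at the top and WT replicate 1 at the bottom. The order of the libraries between them was shared by some lists and not by others. The score of a list, its mean centred log2 CPM, was 0.45, -0.14, -0.30 and 0.28 for the 40 members in KO replicates 1 to 4 and -0.47 and 0.18 in WT replicates 1 and 2. For 33 further genes of the replication machinery it was 0.31, -0.10, -0.14 and 0.12 in KO and -0.31 and 0.13 in WT. For 40 G2/M genes it was 0.91, -0.34, -0.37 and 0.47 in KO and -0.65 and -0.02 in WT, and for 55 tested histone genes 0.62, -0.36, -0.42 and 0.62 in KO and -0.60 and 0.14 in WT. In these 4 lists KO replicate 1 was at the top, WT replicate 1 at the bottom, and WT replicate 2 above KO replicates 2 and 3. KO replicate 4 came next to the top except in the further machinery genes, where WT replicate 2 was level with it. The order was another in checkpoint and fork repair genes, at 0.41, 0.08, -0.01 and 0.10 in KO and -0.41 and -0.17 in WT, and in other S phase regulators, at 0.31, -0.07, -0.04 and 0.19 in KO and -0.28 and -0.11 in WT. Both of these lists also had KO replicate 1 at the top and WT replicate 1 at the bottom, but WT replicate 2 below every KO library. Other nucleotide synthesis genes ran from -0.13 to 0.21 in KO and were at -0.15 and 0.13 in WT, and other chromatin assembly genes ran from -0.14 to 0.36 in KO and were at -0.26 and 0.05 in WT. In the nucleotide and chromatin lists too, KO replicate 1 was at the top and WT replicate 1 at the bottom. WT replicate 2 was above KO replicates 2 and 3 in both, and the chromatin list had the full order of the members. KO replicate 1 is also the library with the highest B-lineage sum and KO replicate 4 that with the highest neutrophil and erythroid sums, and their part in these scores was not tested.

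**Figure D4:**
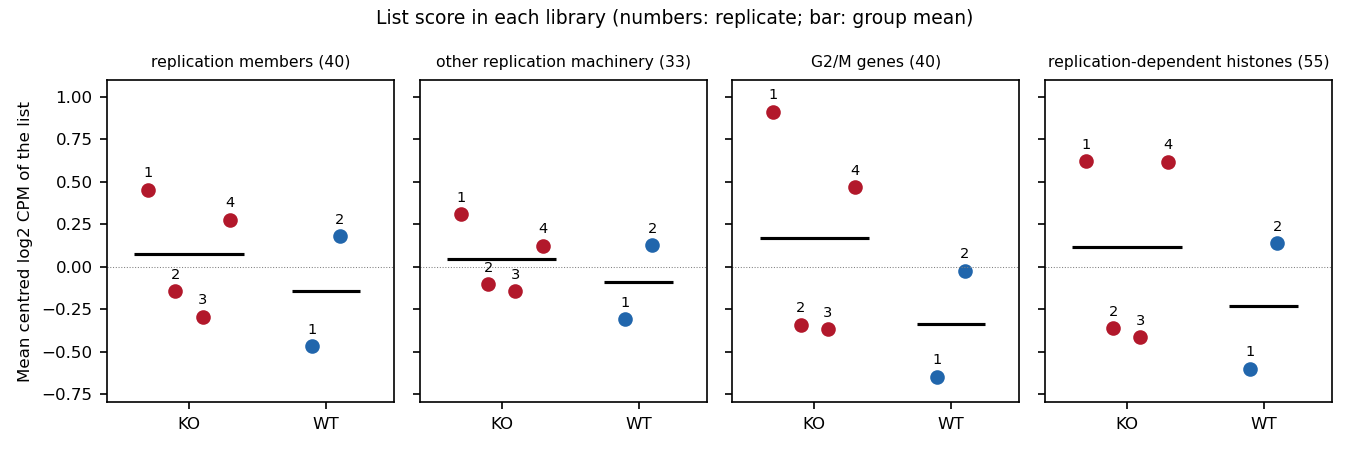
Score of 4 gene lists (mean over the list of log2 CPM centred on each gene's mean) in each library, KO left and WT right, with the replicate number above each point and the group mean as a bar. The 40 replication members run from -0.30 to 0.45 in KO and are at -0.47 and 0.18 in WT.

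In the lists around the members, 0 genes passed the adjusted threshold in edgeR. The counts at an unadjusted p under 0.05 stand against 5.67% of all tested genes higher in KO and 9.9% in either direction. Among the 33 further replication machinery genes, 23 were above 0 (median 0.15, and 0.0075 or -0.11 on leaving out KO replicate 1 or WT replicate 1), with 5 higher and 2 lower in KO at an unadjusted p under 0.05, led by Top1, the topoisomerase ahead of the fork (log2 fold change 0.63, SE 0.18, adjusted p = 0.346), and Cdc7, the kinase that fires origins (0.90, SE 0.31, adjusted p = 0.415). Top1 was at 295, 255, 247 and 378 CPM in KO and 198 and 182 CPM in WT. Of 20 replication checkpoint and fork repair genes, 19 were above 0 (median 0.48), with 4 higher at an unadjusted p under 0.05 and Brca1 (0.86, SE 0.29) and Brca2 (0.61, SE 0.21) in front. Leaving out KO replicate 1 or WT replicate 1 gave this list a median of 0.36 in either case, where the members had 0.016 and -0.077. Whether the lists differ was not tested.

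Of 40 G2/M genes 39 were above 0 (median 0.59, and 0.25 or 0.35 on leaving out KO replicate 1 or WT replicate 1), with 6 higher at an unadjusted p under 0.05, where 5.67% of all tested genes were, led by Foxm1, a transcription factor of mitotic genes (1.37, SE 0.28, adjusted p = 0.166, edgeR), and Kif11, a motor of the mitotic spindle (0.92, SE 0.33, adjusted p = 0.424, edgeR). Foxm1 was at 111, 54.9, 63.9 and 92.5 CPM in KO and 29.5 and 32.6 CPM in WT. Of 55 tested histone genes 49 were above 0 (median 0.39, and 0.18 or 0.12 on leaving out the same libraries), with 3 higher at an unadjusted p under 0.05, a share near the 5.67% of all tested genes. The smallest p-values were those of Hist3h2ba and Hist4h4 at 2.02 (SE 0.71) and 1.07 (SE 0.42). Other nucleotide synthesis genes had a median of -0.03 (-0.15 or -0.16 on leaving out the same libraries), with 6 of 16 above 0 and 1, the salvage kinase gene Dck, higher at an unadjusted p under 0.05 (0.79, SE 0.34), followed by Cad, which starts pyrimidine synthesis, at -0.31 (SE 0.15). Other chromatin assembly genes had 8 of 10 above 0 (median 0.11, and -0.013 or 0.0026 on leaving out the same libraries), with 1, the helicase gene Hells, higher at an unadjusted p under 0.05 (0.62, SE 0.19), followed by the histone chaperone gene Asf1a at 0.48 (SE 0.36).

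The list of other S phase regulators had 19 of 24 genes above 0 (median 0.16), with 5 higher and 1 lower at an unadjusted p under 0.05. Its leading genes were a pair of CDK inhibitors that hold cells in G1 and that pointed in opposite directions. Cdkn1c, known for stem cell quiescence, was at 16.7, 29.2, 22.7 and 20.1 CPM in KO and 40.5 and 40.6 CPM in WT (log2 fold change -0.86, SE 0.24, adjusted p = 0.334, edgeR), with every KO library below both WT libraries. Cdkn1a was at 95.2, 52.4, 50.6 and 33.8 CPM in KO and 10.7 and 13.5 CPM in WT (2.27, SE 0.39, adjusted p = 0.0707, edgeR), with every KO library above both. Groups did not overlap, in either direction, in 20.3% of all tested genes. Neither passed the threshold over all genes.

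Reads within introns gave a second readout that the choice of members did not use. Members had 8.46 to 15.3 of them per 100 exon reads in KO libraries and 11.2 and 10.1 in WT libraries. All 51826 genes together, those with too few counts to be tested included, had 91.9 to 173 in KO and 107 and 122 in WT. Of the members, 37 had enough uniquely placed intron reads to be tested and 3 (Cdt1, Gins2 and Tk1) had 0 in every library. By edgeR 0 of the 37 passed the adjusted threshold (0.0863% of 11585 genes did), 3 had an unadjusted p under 0.05 (6.85% of genes did), and 23 were above 0 with a median of 0.19 (51.7% of genes were above 0). Orc1 was one of the 3, with 91, 89, 52 and 49 intron reads in KO replicates 1 to 4 and 36 and 25 in WT replicates 1 and 2 (log2 fold change 1.13, unadjusted p = 0.0063, adjusted p = 0.601, edgeR). Its intron and exon differences had the same sign, as in 27 of the 37 members. Both kinds of reads come from the same libraries, so a shared sign is not separate evidence. The share with the same sign was not taken over all genes. The WT libraries of Orc1 stood in the opposite order in exon reads, at 2.20 and 7.29 CPM. Over all libraries Orc1 had 342 unique intron reads against 194 unique exon reads. Gins3 had 19, 1, 9 and 14 intron reads in KO and 0 in both WT libraries (unadjusted p = 0.00564, adjusted p = 0.601, edgeR). Pooled KO reads were 6.59-fold above a floor of 3 counts set for both WT libraries together. That ratio takes no account of the spread among KO libraries, of which replicate 2 had 1 read. Rfc3 had 33, 18, 24 and 7 in KO and 44 and 38 in WT (log2 fold change -1.10, unadjusted p = 0.0351, adjusted p = 0.710, edgeR).

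The counts of some members depend on how reads were placed. In 30 of the 40 genes over 90% of exon reads were placed uniquely, but the share was 8.61% in Fen1, 28.2% in Gins2, 37.6% in Cdt1, 45.9% in Pcna, 62.2% in Tk1 and 69.5% in Orc1. With multi-mapping exon reads included, Orc1 was at 1.01 (SE 0.53) on the log2 fold change scale, Pcna at 0.17 (SE 0.23) and Cdt1 at 0.11 (SE 0.30), the last on the other side of 0 from its value of -0.08. Of the members 11 overlap another tested gene in position, and in 5 (Cdc45, Gins2, Rfc4, Fen1 and Ccne2) that gene had the higher level, such as Eif4a2 at 971 CPM over Rfc4 at 28.5 CPM. The sources used here do not say whether counting used strand, so reads of such neighbours cannot be told apart. Of the members 9 (22.5%) lie on chromosome 5, which holds 6.39% of all tested genes. These are Mcm7, Pole, Rfc1, Rfc2, Rfc3, Rfc5, Tyms, Ung and Slbp, and their log2 fold changes ran from -0.17 to 0.77.

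In the authors' deposited table, 0 of the 40 members had an adjusted p under 0.05, against 0.147% of all 51826 genes. A single member, Orc1, had a p under 0.05 in the authors' deposited table, with a signed fold of 2.33 (p = 0.0194, adjusted p = 1). Of all 51826 genes 2.75% did. Both shares include genes with too few counts to be tested above, where 11969 genes were tested. They do not give the share among genes expressed like the members.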

How the data were processed

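Trizol was used for RNA and a directional NEBNext kit for the libraries, per the labels' protocols. Reads were placed on mm10, per the submitters' processing notes, and the sources used here do not name the aligner or counter or say whether counting used strand. The authors deposited 1 table whose expression values are read counts per gene, per the file headers, beside counts of unique and total exon reads and unique intron reads. The deposited RPKM values divide total exon reads by exon length and mapped reads. The authors' deposited p-values and signed fold score stand under a header that names the EDGE test. The table has 54 more columns of values per library that were left aside.

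Genotypes were compared on the expression counts by edgeR 4.0.16 under R 4.3.3 (filterByExpr, TMM, quasi-likelihood F test, genotype as the only term), with Benjamini-Hochberg adjustment over 11969 genes at 0.05. CPM use TMM-scaled sizes, and log2 CPM for scores a prior count of 2. The SE is the log2 fold change over the square root of F. Intron counts were tested in the same way. Alternatives were DESeq2 1.42.0, its size factors, limma-voom 3.58.1 with library quality weights, other filters and read classes, left-out libraries and a replicate block. Table positions were raised by 1, and RefSeq promoters are of build GRCm38.p6. Other steps used pandas 2.3.3 and matplotlib 3.10.9. Members and lists were chosen with earlier results of these data known. Genes given in every library are, per role, the highest in RPKM and the smallest in p, and members at an unadjusted p under 0.05. Of each other list the 2 genes with the smallest p are named. Rfc2, Rrm2, Ccne1, Fen1 and Mcm10 are shown by library or range outside this rule and were chosen after their values were seen.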

Additional observations from a re-analysis of the deposited data

Results flagged for a closer look

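Of 56 sets of 4 KO values examined (each member's CPM and the scores of the member, role and pathway lists), 1 had a library far from the others, where chance gives about 1 in 20. Pola1 was at 137.6 CPM in KO replicate 1 and at 106 to 108 CPM in the other KO libraries, and at 66.1 and 124 CPM in WT replicates 1 and 2.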

How the results depend on the processing

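Under 15 distinct alternatives 0 members were called. The member median, 0.19 in the main test, was -0.077 without WT replicate 1, so it changed sign, and ran up to 0.56 without WT replicate 2. The count of all called genes was 19 in the main test, 87 with the DESeq2 Wald test, 9 with limma-voom, 307 with no filter and 33 without KO replicates 3 and 4, and ran from 2 to 30 with 1 library left out (2 without WT replicate 1, 10 without WT replicate 2, and 12, 11 and 30 without KO replicates 2, 3 and 4). Members at an unadjusted p under 0.05 were 1 in the main test, 2 with DESeq2, 5 with no filter, 0 with limma-voom and with unique or total exon reads, and 0 to 7 with 1 library left out (7 without WT replicate 2, 3 on leaving out KO replicate 2 or 3, 0 on leaving out KO replicate 1 or WT replicate 1). Members above 0 ran from 14 to 37 with 1 library left out, and were 25 with limma-voom, which here also weights libraries by quality. Of all 40 members 9 changed sign with limma-voom, 20 on leaving out WT replicate 1, and 14 or 7 on leaving out KO replicate 1 or 4. Among the 15 members given in detail, those that changed sign with limma-voom were Mcm3 (-0.020), Gins4 (-0.029), Pold1 (-0.10), E2f1 (-0.066) and Ccne2 (-0.054), and Gins4 was at -0.15 in the 4 libraries numbered 1 and 2. With 1 library left out, log2 fold changes among these 15 crossed 0 for Mcm3 (-0.10 to 0.26), Gins4 (-0.091 to 0.12), Pold1 (-0.14 to 0.18), Pcna (-0.034 to 0.26), Rrm1 (-0.0097 to 0.70), Uhrf1 (-0.0065 to 0.51), E2f1 (-0.19 to 0.33) and Ccne2 (-0.20 to 0.74). Without a WT library the lone WT library is assumed to vary like the KO group. The medians of the further gene lists with a library left out were chosen after seeing the data. The causes were not tested.

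Replicate numbers are shared by KO and WT, but the labels do not say that they pair the libraries, and the deviations of KO replicate 1 and WT replicate 1 from their group means had r = -0.094 over genes, the single pair compared. With the replicate number as a block in those 4 libraries, 34 genes were called, against 33 without the block, with 0 members called, 0 at an unadjusted p under 0.05, a member median of 0.29 and Gins4 at -0.15. The SE was 0.20 for Mcm3 on 13046 counts, 0.21 for Gins4 on 865 counts and 0.46 for Fen1 on 174 counts.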
